A study of Mus musculus with 2 samples.

Results

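The neurotrophins are secreted growth factors that keep neurons alive and adjust synapses, and they act through Trk receptor tyrosine kinases and through the receptor p75, which all of them share. Brain-derived neurotrophic factor (BDNF) and neurotrophin-4 bind TrkB, and neurotrophin-3 binds mainly TrkC. The unprocessed precursors bind p75 together with sortilin, a sorting receptor that also steers BDNF into secretory vesicles. In hippocampal neurons the gene of BDNF is a textbook target of electrical activity.

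Genes of this system were taken by their names in the array's own annotation. They are the ligands Bdnf, Ntf3 (neurotrophin-3) and Ntf5 (the mouse name of neurotrophin-4), the Trk receptors Ntrk2 (TrkB) and Ntrk3 (TrkC), Ngfr (p75) and Sort1 (sortilin). These 7 genes, of 22145 named genes on the array, were taken by name, with no threshold on their values, and had 14 probes of 60 bases on 32 spots. They were read in 2 samples, each a single Cy3-labelled array on the same slide. One was RNA from a hippocampal culture kept for 2 days in TTX (tetrodotoxin, which blocks sodium channels and thereby silences action potentials), and the other came from a control culture. The groups are those of the samples' titles and source names, since the treatment text of the labels describes TTX for both samples. Both cultures came from ICR mouse embryos at embryonic day 16.5, grew in medium with 5.5% fetal bovine serum, received 5 µM Ara-C at 2 days after plating against dividing glia, and were harvested at 12 days in vitro. The dose of TTX is uncertain: the series' text gives 2 µM, the TTX sample's own label gives 2 mM, and the files do not settle which is right.

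With 1 array a group there was no test between the cultures and no replicate check. An error given below, unless said otherwise, is the scanner software's own error of the difference, in log2 units. It concerns error within an array and leaves out differences between cultures, RNA preparations and labelling. For a probe on 1 spot it is the software's estimate and not a spread observed between spots. Bright probes on 1 spot had nearly the same error, and the median over measured probes was 0.205. Values are quantile-normalized signals, which are comparable between the arrays for 1 probe but not between probes. A probe was measured if, on each array, a share of at least 0.5 of its spots was called well above background. The brightest such probe stood for its gene. Of 14015 genes measured in this way, 3.4% were at least 2-fold lower in the TTX culture and 2.08% at least 2-fold higher, and their median log2 difference lay at 0.01. All 10 neuron markers were measured (median 0.18), as were 10 of 12 astrocyte markers (median 0.32) and 8 of 10 microglia markers (median 0.33). The microglia genes Cx3cr1 and P2ry12 were not measured, and Aif1 was dim (21.7 with TTX, 22.5 in control). With neuron and astrocyte markers both measured, the RNA came from mixed cells. In such RNA, fewer cells of a type and less RNA per cell cannot be told apart.

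Among the 7 genes, the ligand Bdnf and the receptor Ngfr were several-fold lower in the TTX culture, while both Trk receptors were close to level at their brightest probes. Sort1 was lower by less than 2-fold at its brightest probe, and Ntf3 was slightly higher. Ntf5 was above background in the control culture alone. Of the 6 genes measured on both arrays, 2 were at least 2-fold lower and none at least 2-fold higher. Over all measured genes these shares were 3.4% and 2.08%. Of the same 6 genes, 3 were below 0 and 3 above, and their median was -0.33.

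**Figure D1:**
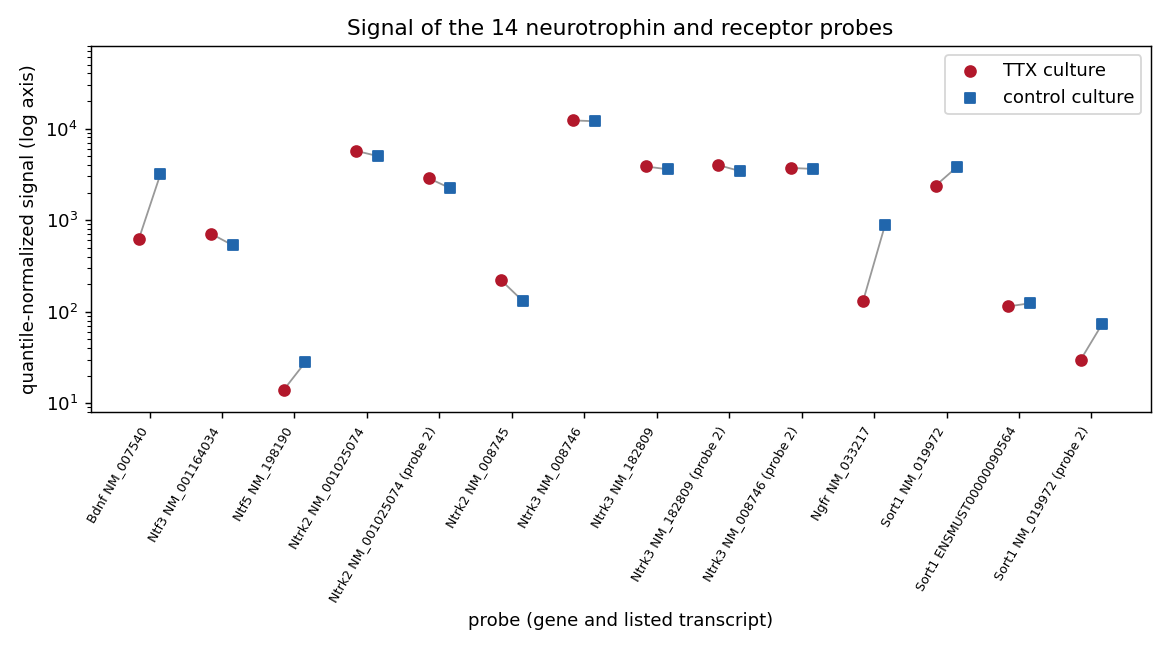
Quantile-normalized signal (log axis) of each of the 14 probes in the TTX culture (circles) and the control culture (squares), labelled by gene and listed transcript, with 1 array a culture. For Ntrk2, "probe 2" is the one listed for both transcripts. The lines of Bdnf and Ngfr are the steepest on the log axis among the probes above background on both arrays, and levels of different probes are not comparable.

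Bdnf had a signal of 617 in the TTX culture and 3190 in the control culture. It was 5.17-fold lower with TTX, a log2 difference of -2.37 with an error of 0.20, and it ranked 55 from the lowest of all measured genes. Its only probe (chromosome 2, 109566961 to 109567020, plus strand, mm9) sat on 1 spot on each array. The annotation lists 4 RefSeq transcripts for it, so messages begun at different Bdnf starts share this signal. The first 30 of its 60 bases are printed to show what was read, without capitals because no single part of the probe carries the result:
Bdnf probe: gtaaatgtctgtggccttgttctctctatg

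Bdnf is known for its many alternative starts, each with a promoter of its own, and the RefSeq table (build GRCm38.p6) holds 7 of them. The 250 bases before each were searched on both strands for the cAMP response element TGACGTCA, its core TGACG (which lies inside the full element), the EGR site GCGGGGGCG and the AP-1 site TGANTCA. The core occurred before 1 of the 7 starts, 35 to 31 bases upstream of the third in genome order. This is shown because that region is the textbook activity-dependent Bdnf promoter, with the matched core (read on the other strand) in capitals; it lies at chr2:109692186-109692435, plus strand:
Bdnf, the third start: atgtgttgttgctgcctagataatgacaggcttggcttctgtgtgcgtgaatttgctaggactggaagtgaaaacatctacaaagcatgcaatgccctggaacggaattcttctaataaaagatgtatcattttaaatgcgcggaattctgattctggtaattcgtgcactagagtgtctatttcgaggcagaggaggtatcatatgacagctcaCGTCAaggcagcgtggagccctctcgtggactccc
The core occurred in 17.8% of all 32851 promoter windows of this length, the full element in 1.55%, the EGR site in 2.57% and the AP-1 site in 6.75%. An AP-1 match lay 152 to 146 bases before the second Bdnf start. None of these letters occurred in the windows of Ngfr (1 start), Ntrk2 (1 start) or Ntf3 (2 starts), the other genes here that the table holds. A match is a description of letters, and the array signal does not say which start was used.

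Ntf3, which makes neurotrophin-3, had a signal of 709 in the TTX culture and 530 in the control culture. The log2 difference was 0.42 with an error of 0.20, a 1.34-fold higher signal, and 13.3% of measured genes lay higher. Its probe (chromosome 6, 126051431 to 126051490, minus strand, mm9) was in row 17 of the array. Among 399 other spots of similar signal in rows 1 to 48 the median difference was 0.02. Its direction was thus opposite to that of Bdnf, at a far smaller size.

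Ntf5 had a signal of 13.95 in the TTX culture, not well above background, and 28.1 in the control culture, where it was above it. Against the lowest signal called above background on the TTX array (19.6), the control signal of Ntf5 was 1.43-fold higher. On the log2 scale this is -0.52 beside a spot error of 0.55, and it was -0.15 with normexp background correction. That lowest signal is not an upper limit for spots left uncalled, so the value is not a strict bound. The probe (chromosome 7, 52671758 to 52671817, plus strand, mm9) was thus too dim to give a difference.

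Ngfr, the p75 receptor that binds all neurotrophins and also their precursors, showed the largest difference of the 6 genes measured on both arrays. Its probe had 10 spots on each array. Their signals ran from 118 to 145 with a median of 134 on the TTX array, and from 832 to 919 with a median of 888 on the control array. The 2 sets did not overlap, and all 10 spots were lower with TTX. How often this occurred among other probes with 10 spots was not counted. The mean log2 difference was -2.73 with an SD over the 10 spots of 0.09, a 6.64-fold lower signal, and it ranked 27 from the lowest of all measured genes. The spots were spread over rows 22 to 377, with a mean of -2.72 over the 4 spots closer to the first row and -2.74 over the other 6. These spots share 1 culture, 1 RNA and 1 labelling on each array, so their agreement measures the array alone. Beside Ngfr and Bdnf, the 10 neuron markers had 4 values below 0 and 6 above, up to 0.47 (Tubb3). Of these, 1, the neurofilament gene Nefm (-1.20), was at least 2-fold lower. Rbfox3 was at -0.81 and Nefl, another neurofilament gene, at -0.61. The part of neuron RNA in the results was not tested.

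The Ngfr probe (chromosome 11, 95430211 to 95430270, minus strand, mm9) begins with the bases below, given because the result rests on this 1 probe:
Ngfr probe: tccagctggcgactatgagatccagacctc

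**Figure D2:**
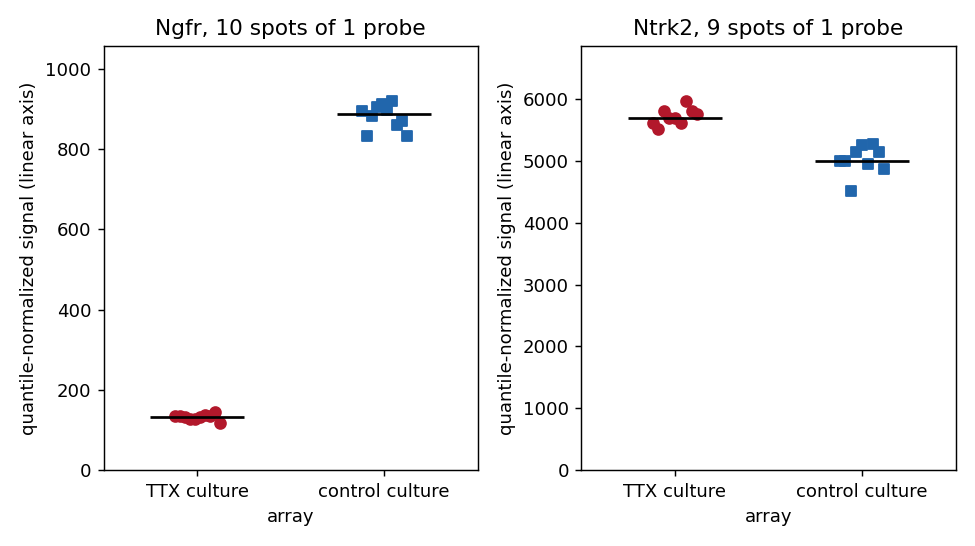
Quantile-normalized signal (linear axis from 0) of the single spots of the Ngfr probe and of the Ntrk2 probe with repeated spots, on the TTX array (circles) and the control array (squares), with a line at the median. Ngfr spots lie at 118 to 145 with TTX and 832 to 919 in control, while Ntrk2 spots lie at 5514 to 5960 with TTX and 4516 to 5270 in control.

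By a fixed rule of likeness, the genes nearest to Ngfr were those with the closest log2 difference among 3150 other genes whose mean log2 signal lay within 1 of its own. They were Wif1, a secreted WNT inhibitor (-2.62), the metalloprotease Adamts8 (-2.54), the small GTPase Rasl11a (-2.53), Crhbp, which binds corticotropin-releasing hormone (-2.52), and the ammonium transporter Rhcg (-2.47). The likeness covers 2 arrays only.

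Ntrk2 encodes TrkB, which is made both as a full kinase receptor, mostly in neurons, and as truncated TrkB.T1, which lacks the kinase and is the main form of astrocytes. Of its 3 probes, 1 is listed for each form alone and 1 for both. The probe listed for the full-length transcript NM_001025074 (chromosome 13, 59230936 to 59230995) had 9 usable spots, since 1 was marked as an outlier on the TTX array. Signals ran from 5514 to 5960 with a median of 5689 on the TTX array, and from 4516 to 5270 with a median of 5002 on the control array. These ranges did not overlap and all 9 spots were higher with TTX, but the mean log2 difference was only 0.19 (SD over spots 0.07). That difference came to 0.00 with scaling on the spike-in controls. How often such ranges stood apart among other probes with repeated spots was not counted. A probe listed for both transcripts (58979563 to 58979622) had 2879 in the TTX culture and 2231 in the control culture, a difference of 0.37 with an error of 0.20. The probe listed for the truncated transcript NM_008745 alone (59038046 to 59038105) had 221 in the TTX culture and 131 in the control culture, a difference of 0.76 with an error of 0.21. All 3 lie on the plus strand (mm9), and the truncated-form probe is 192890 bases before the full-length one.

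The difference at the truncated-form probe exceeded that at the full-length probe by 0.57 with a combined error of 0.22, and that at the shared probe by 0.39 with a combined error of 0.29. The first gap is 2.55 times its within-array error, without any replicate of the cultures. The truncated-form probe sat in row 27, where 456 other spots of similar signal in rows 1 to 48 had a median of 0.07. Beside it, 8 of the 10 measured astrocyte markers were above 0. Values ran from -1.05 (Slc1a2, a glutamate transporter) to 0.78 (Gfap, the astrocyte intermediate filament), with a median of 0.32. Of the other 2 astrocyte markers, Gjb6 was not well above background on either array and Gja1 was above it with TTX only. The part of astrocyte RNA in the Ntrk2 result was not tested. The 3 probes are shown because they differ in which forms they are listed for. The shared one is printed whole, since its bases code for the end of the membrane-spanning segment, which both forms carry, and the other two by their first 30 bases:
Ntrk2 full-length probe: tcaattgatacctatgtgcacgtgtgcaga
Ntrk2 shared probe: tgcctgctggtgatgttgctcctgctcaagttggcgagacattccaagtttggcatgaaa
Ntrk2 truncated-form probe: ttctcaccagcttaattttagccgatgcat

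Ntrk3, the neurotrophin-3 receptor TrkC, also exists with and without its kinase, and 4 probes on the minus strand of chromosome 7 (mm9) read it. For the kinase transcript NM_008746, 1 probe (85337455 to 85337514) had 12286 in the TTX culture and 12035 in the control culture, a difference of 0.03. The other (85392044 to 85392103) had 3717 in the TTX culture and 3632 in the control culture, again 0.03. For the transcript without the kinase, NM_182809, 1 probe (85447515 to 85447574) had 3858 in the TTX culture and 3596 in the control culture, a difference of 0.10, and the other (85445908 to 85445967) had 3995 in the TTX culture and 3435 in the control culture, a difference of 0.22. Each has an error of 0.20, so 3 probes lay within their error of 0 and the fourth just past it, and any pair of probes differed by less than 0.20. The gene's sign turned below 0 with other scalings, to -0.16 with spike-in scaling.

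Probes from the coding parts of both TrkC forms are printed whole, because they show which form each reads. The kinase one codes for the activation loop of the enzyme, and the other ends with the stop codon of the short form, in capitals:
Ntrk3 kinase probe: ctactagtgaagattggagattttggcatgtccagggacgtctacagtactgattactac
Ntrk3 truncated-form probe: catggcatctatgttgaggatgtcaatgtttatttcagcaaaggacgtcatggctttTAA

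Sort1 gave 3 different answers at its 3 probes, which lie on the plus strand of chromosome 3 (mm9). The brightest (108164349 to 108164408) had 2387 in the TTX culture and 3848 in the control culture, a difference of -0.69 with an error of 0.20, or 1.61-fold lower, and 6.79% of measured genes lay lower. A probe whose 60 bases are spread over 2049 bases of the genome, so that it joins exons (108157150 to 108159198), had 29.7 in the TTX culture and 73.8 in the control culture. Its difference of -1.31 (error 0.29) came from a signal in the lowest 12.7% of measured probes, and was -0.57 with normexp background correction. A probe listed only for Ensembl transcripts (108158404 to 108158463) had 114 in the TTX culture and 124 in the control culture, a difference of -0.11 with an error of 0.22. It differed from the exon-joining probe by 1.20 with a combined error of 0.36. It lies between the ends of that probe. The exon-joining probe is printed because its bases are contiguous only in spliced Sort1 message:
Sort1 exon-joining probe: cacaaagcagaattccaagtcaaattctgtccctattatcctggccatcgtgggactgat

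**Figure D3:**
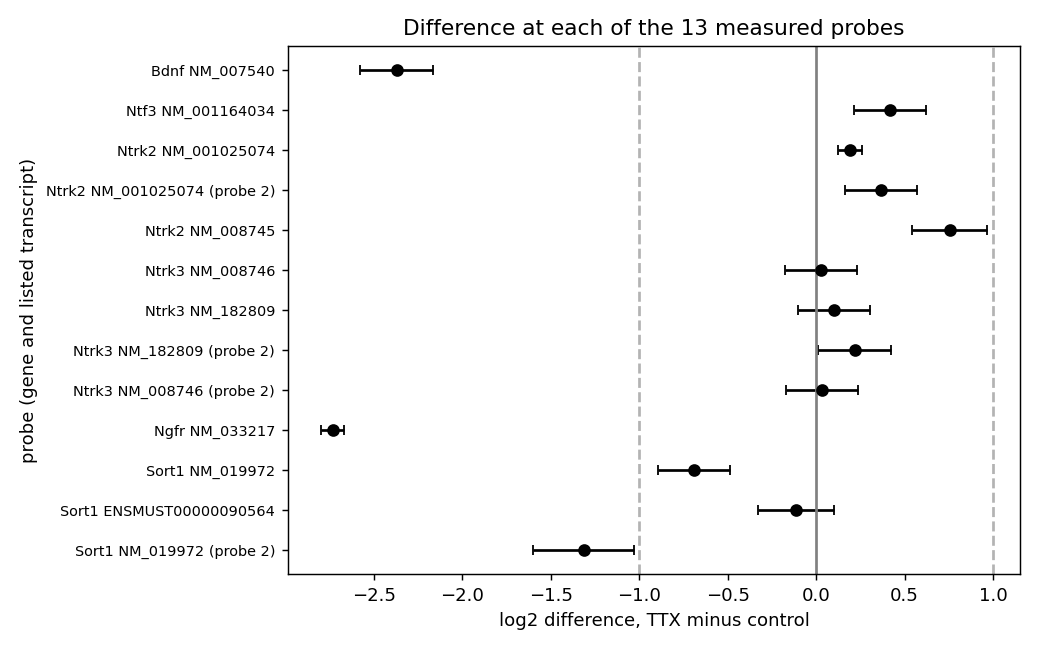
Log2 difference, TTX minus control, at each of the 13 measured probes, with bars for the scanner software's error of the difference and dashed lines at 2-fold. The probes of Bdnf (-2.37) and Ngfr (-2.73) and the dim exon-joining probe of Sort1 (-1.31) lie beyond the lower line, and no probe lies beyond the upper one.

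Other genes of the pathway were read from lists chosen with earlier results of these data known. Among relatives of sortilin, all 4 measured genes were below 0. Of these, 1 was at least 2-fold lower, beside 3.4% of all measured genes. Sorcs3, a sortilin relative found in hippocampal neurons, had 77.3 in the TTX culture and 311 in the control culture. Its difference was -2.01, but -1.33 with normexp, and the stricter filter on dim probes left it out. Its relatives Sorcs2, a co-receptor of p75 (-0.84, and -1.01 at its other probe), Sorcs1 (-0.59, and -0.16 at its other probe) and Sorl1 (-0.36, and -0.29 at its other probe) were lower by less than 2-fold at their brightest probes. With spike-in scaling Sorcs2 came to -1.03, past 2-fold.

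Of the partners and adaptors of p75, 10 of 12 on the array were measured, and none was past 2-fold with quantile normalization. They had 5 values below 0 and 5 above, with a median of 0.01. The furthest was Nradd, a homologue of p75 that lacks its neurotrophin-binding part, with 58.4 in the TTX culture and 29.9 in the control culture (0.97). It passed 2-fold with 75th percentile scaling (1.13), spike-in scaling (1.07) and no normalization (1.12), and was at 0.41 with normexp. Traf6, a signalling adaptor of p75, was at 0.49 and Traf4 at 0.36. Lingo1, a co-receptor of p75, had 17.7 in the TTX culture, not well above background, and 24.8 in the control culture, where it was above it.

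The list for Trk adaptors and signalling had 28 measured genes, the member Ntrk2 among them. Of these, 1 was at least 2-fold lower and 3 at least 2-fold higher, beside 3.4% and 2.08% of all measured genes. In this list 20 were above 0, and the median was 0.20. The lower one was Shc3, the neuronal Shc adaptor, with 50.8 in the TTX culture and 308 in the control culture (-2.60, but -1.68 with normexp). It was left out by the stricter filter on dim probes. Its relative Shc4 went the other way, with 3622 in the TTX culture and 1701 in the control culture (1.09). Pik3r1, the regulatory subunit of PI3 kinase, was at 1.24 and the adaptor Sh2b2 at 1.02. Of these 3 higher genes, only Pik3r1 was past 2-fold with spike-in scaling, where Shc4 was at 0.92, Sh2b2 at 0.96 and the list's median at 0.06. Shc4 was also at 0.98 with 75th percentile scaling and with no normalization, and Sh2b2 at 0.86 with normexp and 0.96 with the local spot median subtracted. The PI3 kinase catalytic subunit Pik3ca (0.89), the adaptor Sh2b3 (0.72), the ubiquitin ligase Nedd4l (0.59) and Irs1 (0.59) were higher by less than 2-fold. Nedd4l and Irs1 had a second probe at -0.23 and -0.06, and Nedd4l came to -0.20 with normexp.

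Enzymes and carriers that process and release neurotrophins were divided. Of 18 measured, 2 were at least 2-fold lower and 1 at least 2-fold higher, beside 3.4% and 2.08% of all measured genes. The list's median was -0.06. Pcsk1, a convertase of secretory granules, had 47.5 in the TTX culture and 439 in the control culture (-3.21, but -2.20 with normexp). Its granule relative Pcsk2 had 4087 in the TTX culture and 12163 in the control culture (-1.57, and -1.19 at its other probe). Pcsk5 was higher, with 641 in the TTX culture and 250 in the control culture (1.36). Furin, which cleaves proneurotrophins in the Golgi, was at -0.72, the inhibitor Timp1 at -0.64 and Pcsk6 at -0.55. Plasminogen (Plg) and the matrix proteases Mmp3, Mmp7 and Mmp9, which cut proBDNF outside the cell, were well above background on neither array.

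**Figure D4:**
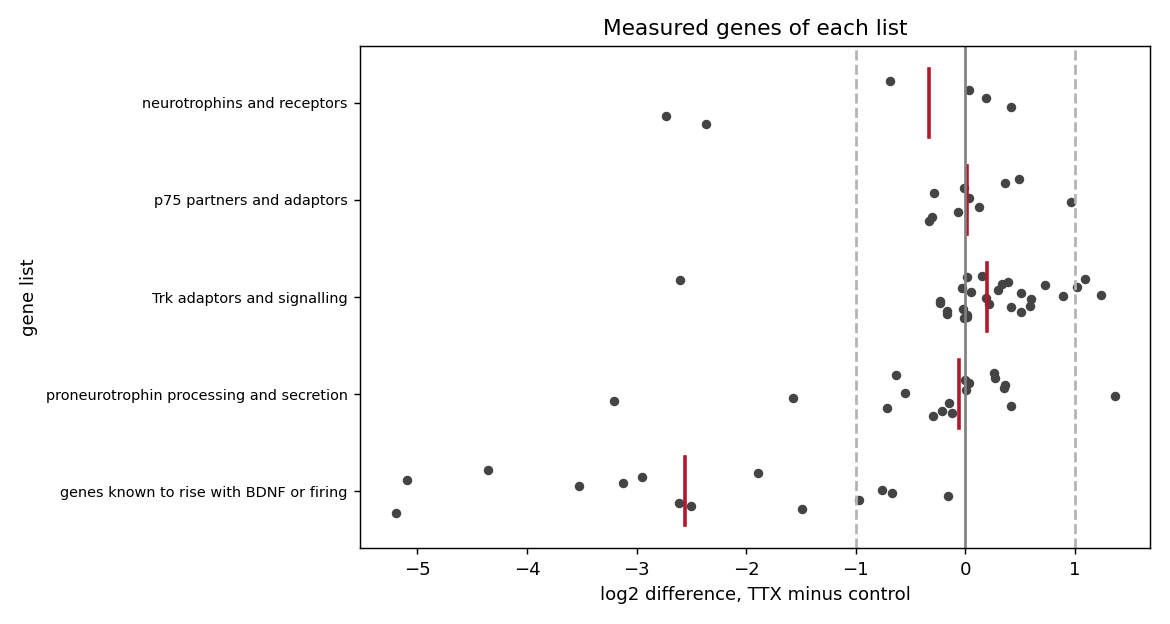
Log2 difference, TTX minus control, of each measured gene of 5 lists (points), with the list's median as a red bar and dashed lines at 2-fold. Genes known to rise with BDNF or firing are all below 0, with a median of -2.56, while the Trk adaptors centre on 0.20. The median over all measured genes was 0.01.

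Of 17 genes known from other work to rise with BDNF or with firing, 14 were measured. Of these, 10 were at least 2-fold lower, beside 3.4% of all measured genes. The list's median was -2.56, and that of all measured genes was 0.01. All 14 values were below 0, but that of Homer1, a synaptic scaffold protein, lay within its error (-0.16, error 0.20, and from -0.89 to -0.15 over its 5 probes). Arc, a synaptic cytoskeletal protein, had 127 in the TTX culture and 4642 in the control culture (-5.19). The nuclear receptor Nr4a1 was at -5.10 and the neuropeptide precursor Vgf at -4.36. Dusp6 (-1.49) and Spry2 (-1.89, but -1.08 with normexp), feedback inhibitors of the ERK pathway that Trk receptors use, were lower as well. These genes are also known to respond to calcium entry without BDNF, and the part of BDNF in their values was not tested.

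Each of the 6 genes measured on both arrays was recomputed under 9 other ways of processing. Ngfr stayed between -2.78 and -2.25 and Bdnf between -2.50 and -2.28. Sort1 ranged from -0.85 to -0.65, Ntf3 from 0.33 to 0.42, Ntrk2 from 0.00 to 0.44 and Ntrk3 from -0.16 to 0.10.

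**Figure D5:**
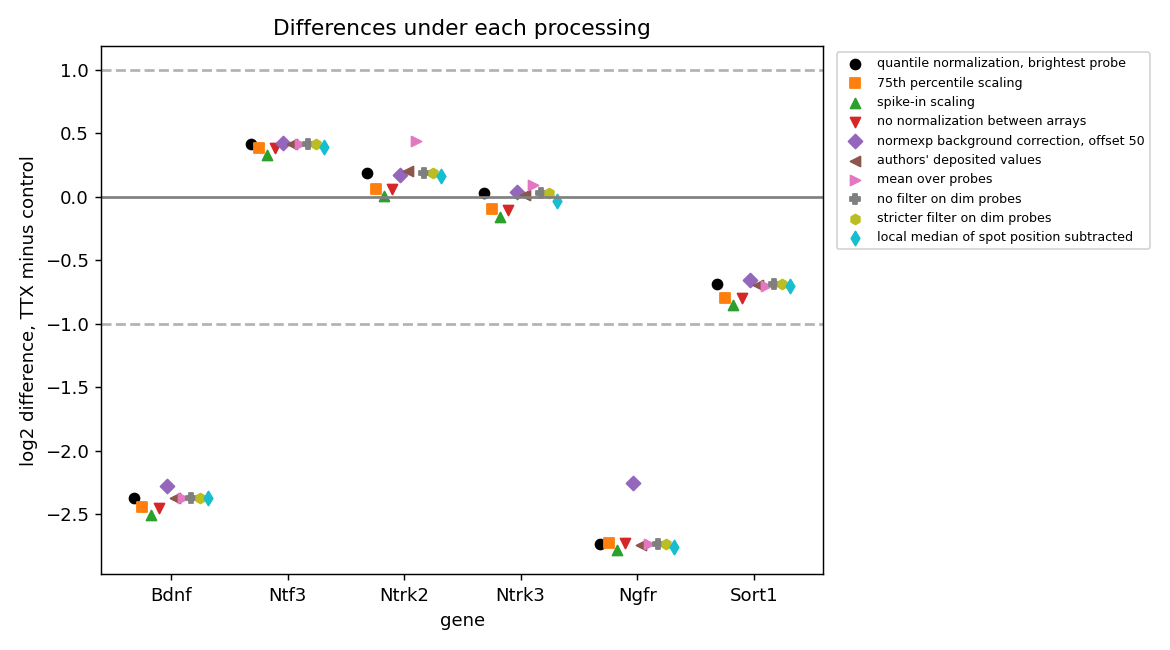
Log2 difference, TTX minus control, of the 6 genes measured on both arrays, under quantile normalization with the brightest probe (black) and under 9 other ways of processing (coloured symbols), with dashed lines at 2-fold. Bdnf and Ngfr stay below the 2-fold line under all of them, and Ntrk3 crosses 0.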

How the data were processed

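Members and gene lists were chosen with earlier results of these data known. The authors' scanner files hold spot intensity, background-subtracted within each array by Agilent Feature Extraction, version 10.7.1.1 per the file headers and 9.5.1.1 per the submitters' processing notes. The authors' deposited value table holds linear intensity with equal quantiles on both arrays, as the series' design text states. Flags per spot (well above background, outlier) are deposited in the scanner files per the file headers.

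Processed signals of 59305 non-control spots were brought to equal quantiles on both arrays. Spots marked as outliers on either array were left out, and the log2 values of a probe's remaining spots were averaged. None was saturated. On the TTX array 52.2% of spots stood well above background, and on the control array 54.2%. Genes other than the members were named through RefSeq accessions or symbols (GRCm38.p6), which covered 30847 of 55681 probes, while probe coordinates are mm9 per the file headers. Promoter sequences are RefSeq's. No mm9 annotation was used, so exon or UTR positions are not given.

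Named genes were the members with all their probes, list genes past 2-fold plus up to 4 more with the largest difference, and the 5 genes nearest to the member with the largest difference. Not every gene so chosen is printed, and some are not reported here. The pooled SD of spot differences was 0.15 over 261 probes with 10 spots. On data simulated for the TTX against control comparison (14735 genes), log2 differences of 2 and -2 came back as means of 1.96 and -2.02 over 50 genes each. The simulated TTX array was the control array with set differences and noise added and its flags copied. It therefore checks the calculation only and says nothing about the error between the 2 real arrays. Tools were Python 3.11.15, numpy 2.4.6, and limma 3.58.1 for normexp. Alternatives were 75th percentile, spike-in or no scaling, normexp with an offset of 50, the deposited values, the mean over probes, no filter or a stricter filter (above percentile 25) on dim probes, 1.5-fold and 3-fold rules, and subtraction of the median of spots in the same 48 rows and signal bin, chosen after seeing the data.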

Additional observations from a re-analysis of the deposited data

How the results depend on the processing

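The alternatives were run for the members and for the 130 other measured genes of the pathway and marker lists, many of them not printed here. None of those past 2-fold changed sign. Ntrk3, which was near 0, did so, as did some list genes within 2-fold, among them Nedd4l (-0.20 with normexp) and Kidins220 (0.23 as the mean over probes). The Ntrk2 difference at its brightest probe was 0.065 with 75th percentile scaling, 0.0048 with spike-in scaling and 0.060 with no normalization between arrays, against 0.19 with quantile normalization, and 0.44 as the mean over its probes, which differ among themselves. Ngfr was at -2.25 with normexp, whose offset shrinks differences of dim probes by construction. Counts of genes at least 2-fold lower and higher, 476 and 291, were 301 and 147 with normexp, 1372 and 1058 without a filter on dim probes, 311 and 159 with the stricter filter, 1214 and 1068 with a 1.5-fold rule and 163 and 94 with a 3-fold rule. Spike-in scaling put the median of all genes at -0.09. Of 1146 values for these 130 list genes, 43 moved by more than their spot error. No paired analysis was possible because each group has 1 array. The Ntf5 value against the lowest called signal was smaller in size than its spot error of 0.55 under the alternatives run. With 1 array a group no value here has a replicate check.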

Other observations

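In another family of neurotrophic factors, that of GDNF, the co-receptor genes Gfra2 and Gfra1 were at least 2-fold higher in the TTX culture. Gfra2, the neurturin co-receptor, had 6529 in the TTX culture and 2076 in the control culture, a log2 difference of 1.65. Gfra1, the GDNF co-receptor, had 149 in the TTX culture and 72.7 in the control culture (1.04, but 0.62 with normexp). The CNTF receptor Cntfr (0.82) and Lifr (0.67) were higher by less than 2-fold, while the ligands Artn (-0.61) and Manf (-0.51) were lower. The kinase Ret, through which GFRα proteins signal, and Gdnf itself were well above background on neither array.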
